A study of Mus musculus with 36 samples.

Results

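The variable (V) segments of the immunoglobulin light chains were examined in RNA sequencing of the mouse cochlea, the coiled part of the inner ear that serves hearing. Members were the genes whose GENCODE M21 symbol begins with Igkv (kappa) or Iglv (lambda) and whose mean count over the 36 libraries was at least 10. This rule took 80 of the 106 such genes in a table of 39017 genes and left out 26 with lower counts. Of the 80 members, 77 are kappa segments on chromosome 6 and 3 are lambda segments on chromosome 16, and 79 are annotated as V genes and 1, Igkv11-106, as a V pseudogene. The member with the lowest mean count was Igkv7-33 with 10.25, and the gene just below the minimum was Igkv4-69 with 9.81. Igkv7-33, Igkv14-130 and Igkv9-129 each met the minimum only through their highest library, without which the mean count was under 10.

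Cochleae came from CBA/Sca mice aged 12 weeks that had lost their adrenal glands (ADX), and with them the main source of glucocorticoid hormones, or had undergone a sham operation. All animals were of this 1 strain. Each of the 6 circadian times from CT04 to CT24, 4 h apart, was represented by 3 libraries of each status, which makes 18 ADX and 18 sham libraries. Total counts ranged from 20351081 to 28947793 in ADX libraries and from 18999408 to 28995197 in sham libraries. Some libraries stood apart in transcripts of skeletal muscle or the pituitary, and the source of these transcripts was not tested. The summed level of 15 skeletal muscle genes was highest in ADX CT20 replicate 3, ADX CT12 replicate 1 and ADX CT16 replicate 2, and reached 882 CPM (counts per 1000000 counts of the TMM-scaled library) in ADX libraries and 173 CPM in sham libraries. The pituitary hormone transcript Gh was highest in ADX CT24 replicate 2 (130.1 CPM), sham CT16 replicate 3 (1180 CPM), sham CT08 replicate 3 (496 CPM) and sham CT08 replicate 2 (86.0 CPM). All 10 listed hair cell genes were detected and tested, with summed levels from 207 to 271 CPM in ADX libraries and from 188 to 315 CPM in sham libraries.

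An antibody is built from heavy and light chains. In each developing B lymphocyte, which in adult mice arises in the bone marrow, one V segment of a light chain locus is joined to a short joining (J) segment by the Rag recombinase and is then spliced to the constant region, Igkc for kappa or an Iglc gene for lambda. A clone of B cells or plasma cells therefore transcribes mainly the V segment it has joined, and the mixture of V segments in a tissue reflects the mixture of its B-lineage clones. In mice most light chains are kappa. The cochlea lies in the temporal bone, next to marrow. In bulk tissue, a difference in the number of such cells and a difference in their RNA per cell cannot be told apart.

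Light chain V transcripts were abundant enough to be followed in every library, and their sum was higher on average in ADX cochleae. The 80 members together had between 282 and 486 CPM in the 18 ADX libraries (median 385) and between 224 and 389 CPM in the 18 sham libraries (median 299). The means were 379 ± 57.1 CPM in ADX and 304.0 ± 51.6 CPM in sham (SD, n = 18 each), a log2 ratio of 0.32 that is a description without a test. The ranges overlapped over all times. At CT08 the 3 ADX libraries (380 to 486 CPM) lay above the 3 sham libraries (247 to 366 CPM), and at CT24 the ADX libraries (399 to 461 CPM) lay above the sham libraries (279 to 353 CPM). At CT04, CT12, CT16 and CT20 the groups overlapped.

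**Figure D1:**
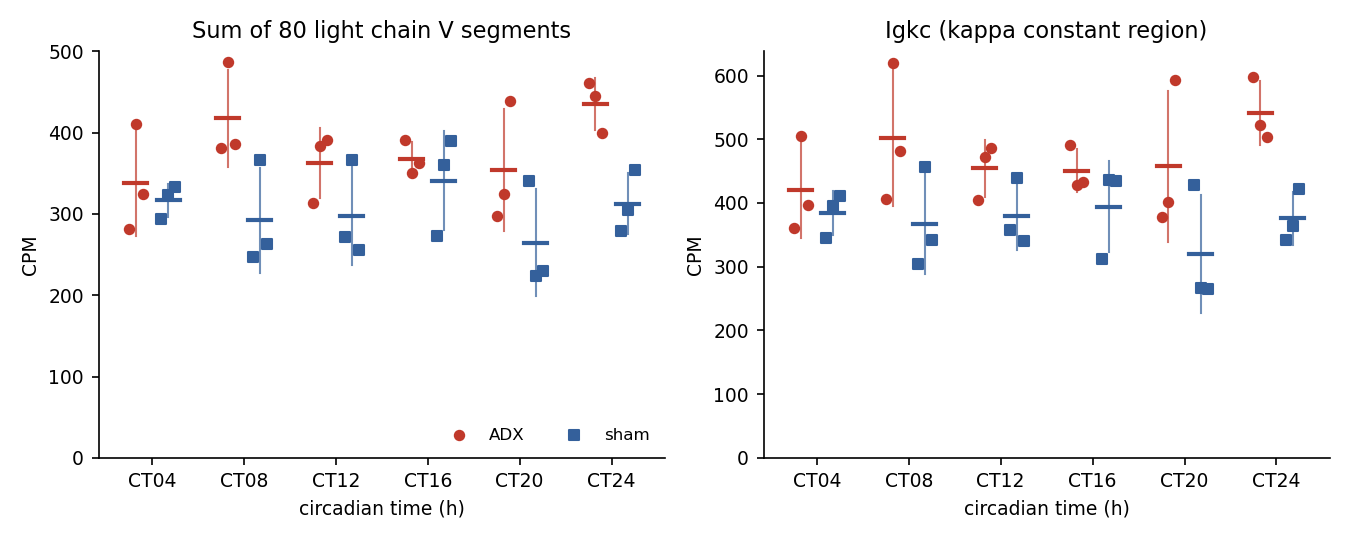
Summed CPM of the 80 light chain V segments (left) and CPM of Igkc (right) against circadian time, with ADX (circles) left of sham (squares) at each time. Each point is a library, horizontal lines are means and vertical lines ± 1 SD (n = 3), and the groups of the V sum do not overlap at CT08 and CT24.

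Igkc, the constant region of the kappa chain, was higher on average in ADX libraries. It had 471 ± 77.4 CPM in ADX and 370.1 ± 60.3 CPM in sham (SD, n = 18 each). The log2 fold change was 0.35 ± 0.08 (SE) over the mean of the 6 times (edgeR quasi-likelihood test, adjusted p = 0.0372). Iglc2, a lambda constant region, had 21.1 ± 2.48 CPM in ADX and 17.6 ± 2.74 CPM in sham and was also called (log2 fold change 0.27 ± 0.06, edgeR adjusted p = 0.0389). Each of these calls was lost in 14 of the 36 fits that left out 1 library, and Igkc had an adjusted p of 0.0519 and Iglc2 of 0.0558 without the 3 libraries of highest muscle transcripts. Of 5 listed light chain constant genes, these 2 were the only ones among the tested genes, and Iglc1 and Iglc3 were not analysed here. The summed V level per unit of Igkc was 0.807 ± 0.041 in ADX and 0.822 ± 0.038 in sham. These ratios overlapped, and the V sum per unit of the summed level of 16 B lymphocyte genes was 0.381 ± 0.071 in ADX and 0.364 ± 0.064 in sham.

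Taken one by one, 2 of the 80 segments passed the edgeR comparison of ADX with sham averaged over the times, and both were higher in ADX. The number that passed depended on the tool and on single libraries. It was 8 with DESeq2, which added Igkv12-46, Igkv2-137, Igkv3-12, Igkv3-4, Igkv4-68 and Igkv8-24 to the 2, and with edgeR it was 0 to 7 when 1 library was left out. DESeq2 gave no adjusted p for some members, which therefore could not pass. Among these were Igkv4-79, Igkv11-125, Igkv14-130 and Igkv7-33. The last was lower in ADX, with a log2 fold change of -1.89 and an unadjusted p of 0.00068 (DESeq2). Leaving out the 3 libraries of highest muscle transcripts gave 0, and leaving out the 4 of highest Gh gave 4. Across all 22556 tested genes, the main edgeR fit called 0.346% higher and 0.372% lower in ADX. These shares go with the 2 members called in that fit. Shares of all tested genes in the other fits are not given here, so the member counts of those fits have no share to be set against. All 80 members passed the filter on low counts. The log2 fold change was above 0 for 73 of the 80 members (91.2%), against 50.7% of all tested genes, and its median was 0.31 over the members against 0.0011 over all tested genes. At an unadjusted p under 0.05, 35 members were higher and 1 lower in ADX, where 8.22% of all tested genes were higher and 7.39% lower. Segments of one locus in the same libraries share their cells, so the 80 values are not independent of each other.

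**Figure D2:**
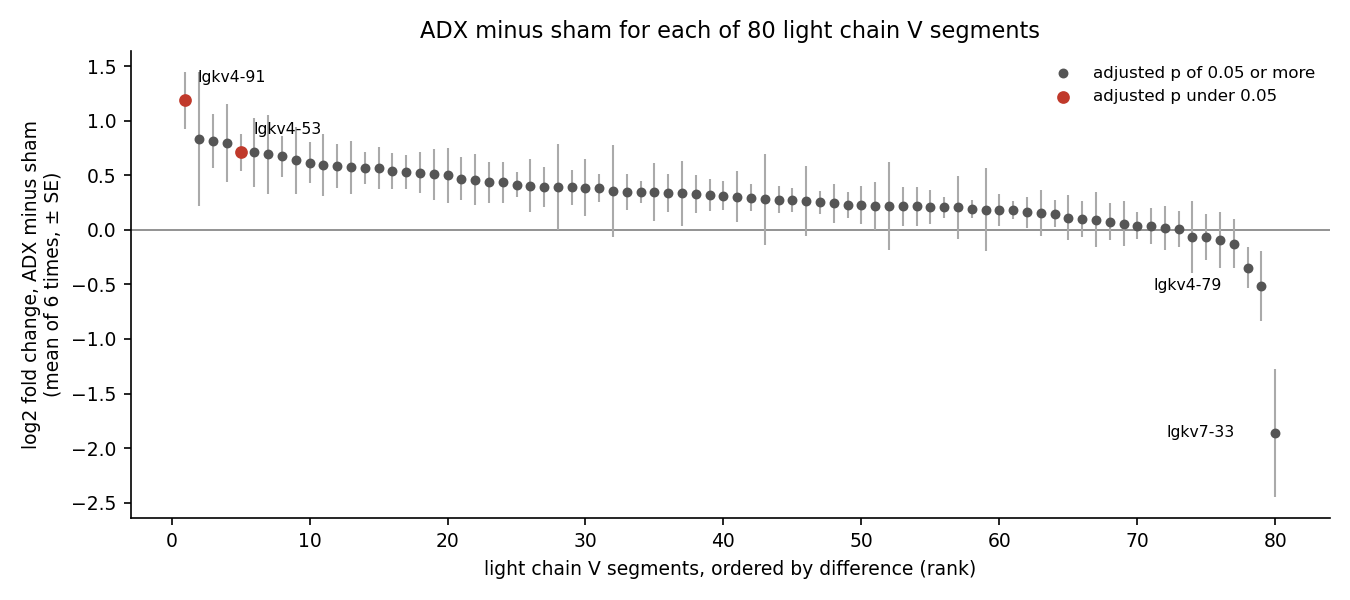
Log2 fold change of ADX minus sham over the mean of the 6 times for each of the 80 light chain V segments, ordered by size, with the standard error from edgeR as vertical lines. The 2 segments with an adjusted p under 0.05, Igkv4-91 and Igkv4-53, are marked in red, 73 points lie above 0, and Igkv7-33 is lowest at -1.86.

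The segment with the largest positive difference was Igkv4-91 (chromosome 6, 68768555 to 68769103, minus strand, GRCm38). It had 0.838 to 4.91 CPM in ADX libraries (median 2.75) and 0.343 to 5.12 CPM in sham libraries (median 1.01). At CT04 its 3 ADX libraries had 2.01, 3.79 and 4.34 CPM, against 0.682, 1.14 and 0.782 CPM in the sham libraries. At CT24 the ADX libraries had 1.87, 4.34 and 4.91 CPM, against 0.343, 0.573 and 1.03 CPM in the sham libraries. The groups were apart at these 2 times and overlapped at the other 4, and 1 sham library, CT12 replicate 2, held the highest value of all. The log2 fold change was 1.19 ± 0.26 (SE, edgeR adjusted p = 0.0353), and it was positive at all 6 times.

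Igkv4-53 (chromosome 6, 69648824 to 69649363, minus strand, GRCm38) was the other segment that passed. It had 1.75 to 4.94 CPM in ADX libraries (median 2.25) and 0.235 to 2.47 CPM in sham libraries (median 1.76). At CT24 all 3 ADX libraries, with 3.11, 2.95 and 3.43 CPM, were above the 3 sham libraries, with 1.11, 1.07 and 2.10 CPM. The log2 fold change was 0.71 ± 0.17 (SE, edgeR adjusted p = 0.0429), again positive at all 6 times. Both calls lie close to the threshold. The call of Igkv4-91 was kept in 27 of the 36 fits that left out 1 library, with adjusted p from 0.0159 to 0.0605, and was lost without ADX CT04, CT08 or CT12 replicate 3, ADX CT16 replicate 2, sham CT04 or CT24 replicate 2, or sham CT08, CT12 or CT20 replicate 3. The call of Igkv4-53 was kept in 13 of the 36 fits, namely without ADX CT04 replicate 1 or 2, CT08 replicate 2, CT12 replicate 1, CT20 replicate 2 or 3 or CT24 replicate 2, and without sham CT12 replicate 1 or 2, CT16 replicate 1 or 2, CT20 replicate 1 or CT24 replicate 3. Without the 3 ADX libraries of highest muscle transcripts the adjusted p was 0.0553 for Igkv4-91 and 0.0616 for Igkv4-53, with log2 fold changes of 1.14 and 0.73. Without the 4 libraries of highest Gh, Igkv4-53 had an adjusted p of 0.0883.

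**Figure D3:**
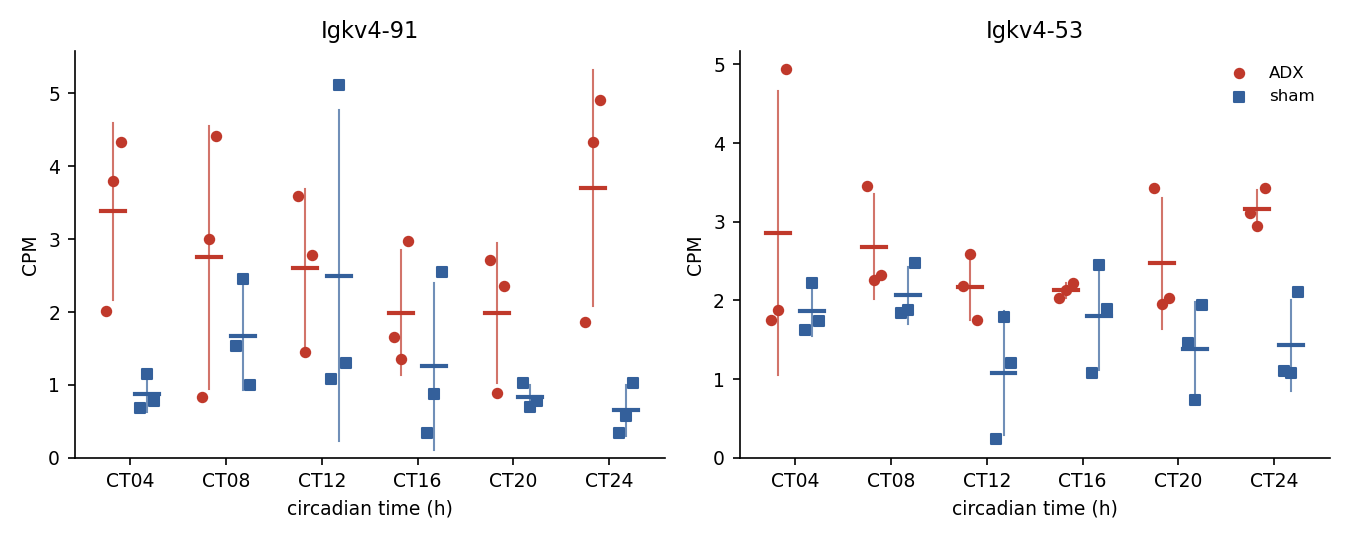
CPM of Igkv4-91 (left) and Igkv4-53 (right) against circadian time, with ADX (circles) left of sham (squares) at each time. Points are libraries, horizontal lines means and vertical lines ± 1 SD cut at 0 (n = 3), and the sham library with the highest Igkv4-91 value stands at CT12.

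Both called segments belong to Igkv4, the subgroup with the most members, and their closest relative among the members was the same segment, Igkv4-70. V segments resemble each other, so the sequences show how far reads of 100 bases could separate them. The last 290 bases of each V exon, which are wholly coding, are given 5′ to 3′ as the GENCODE M21 transcript for GRCm38 has them, and capitals mark bases of Igkv4-91 or Igkv4-53 that differ from Igkv4-70 or have no partner in it when the whole V exons are aligned.
Igkv4-91, chr6:68768555-68768844, minus strand: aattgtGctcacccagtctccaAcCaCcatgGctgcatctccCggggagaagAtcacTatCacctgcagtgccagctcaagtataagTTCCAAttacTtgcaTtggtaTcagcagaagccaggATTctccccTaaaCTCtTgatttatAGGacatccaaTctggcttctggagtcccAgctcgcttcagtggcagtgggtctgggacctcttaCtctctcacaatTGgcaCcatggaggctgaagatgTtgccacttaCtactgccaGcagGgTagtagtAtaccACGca
Igkv4-53, chr6:69648824-69649113, minus strand: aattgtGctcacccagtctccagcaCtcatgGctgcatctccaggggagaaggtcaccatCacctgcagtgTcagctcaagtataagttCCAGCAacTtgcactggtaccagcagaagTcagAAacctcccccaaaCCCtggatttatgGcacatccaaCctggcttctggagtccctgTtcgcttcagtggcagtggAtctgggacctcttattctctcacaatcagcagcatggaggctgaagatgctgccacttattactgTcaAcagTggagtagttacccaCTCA
Igkv4-70, chr6:69267888-69268177, minus strand: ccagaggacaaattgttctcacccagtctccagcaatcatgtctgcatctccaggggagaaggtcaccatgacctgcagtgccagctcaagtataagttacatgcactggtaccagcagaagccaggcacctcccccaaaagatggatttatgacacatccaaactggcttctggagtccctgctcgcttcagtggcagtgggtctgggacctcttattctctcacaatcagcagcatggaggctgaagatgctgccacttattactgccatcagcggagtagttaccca
Igkv4-91 had 87.0% identity to Igkv4-70, with 39 of 299 aligned bases differing, and shared no window of 100 bases with a transcript of another gene. Igkv4-53 had 92.6% identity, with 22 of 299 aligned bases differing, and 7.46% of its 100-base windows also occurred in another gene, a V pseudogene. The reference is of the strain C57BL/6J, and how reads of the alleles of CBA/Sca mice were assigned to it was not tested.

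The 5 highest log2 fold changes over the mean of the times were those of Igkv4-91, Igkv14-130 (0.83 ± 0.61), Igkv8-24 (0.81 ± 0.25), Igkv6-20 (0.79 ± 0.36) and Igkv4-53. Igkv14-130, Igkv8-24 and Igkv6-20 did not pass, with adjusted p of 0.556, 0.0997 and 0.272 (edgeR) and each had 1 ADX library far above the others. The log2 fold change was 0.37 for Igkv14-130 without ADX CT24 replicate 2, 0.48 for Igkv8-24 without ADX CT08 replicate 1 and 0.25 for Igkv6-20 without ADX CT24 replicate 1. The last is below the member median of 0.31. Without the 4 libraries of highest Gh, Igkv14-130 had 0.53. The 5 lowest were those of Igkv7-33 (-1.86 ± 0.59), Igkv4-79 (-0.51 ± 0.32), Igkv12-89 (-0.35 ± 0.19), Igkv10-94 (-0.13 ± 0.23) and Igkv4-80 (-0.09 ± 0.25), and none passed with edgeR. Igkv7-33 had 0 to 0.784 CPM in ADX libraries (median 0.0696) and 0 to 4.16 CPM in sham libraries (median 0.426), with an adjusted p of 0.110. It was the rarest member, at 0 in 2 ADX and 3 sham libraries. Igkv7-33 and Igkv14-130 met the count minimum only through their highest library, which held 29.5% and 42.7% of their counts. Without the 4 libraries of highest Gh, the difference of Igkv7-33 was -0.96 on the log2 scale, with an adjusted p of 0.997 (edgeR), in a fit whose 1 remaining sham library at CT08 had 0 counts of it. In the same fit Igkv4-79 had -0.09, and it had -0.90 without the 3 libraries of highest muscle transcripts, -0.28 without sham CT08 replicate 3 and -0.31 without sham CT24 replicate 3. The sign of Igkv10-94 turned without sham CT24 replicate 3, and that of Igkv4-80 without sham CT08 replicate 1 or sham CT12 replicate 1.

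At single times no member passed the edgeR test, and DESeq2 called 0 at each time too. Of all tested genes, 0% were called at each time except CT20, where 0.00443% were. At an unadjusted p under 0.05, edgeR gave 9 members at CT04, 13 at CT08, 7 at CT12, 10 at CT16, 11 at CT20 and 16 at CT24, out of 80. The share of all tested genes under that p was 9.30% at CT04, 4.28% at CT08, 5.41% at CT12, 7.95% at CT16, 7.49% at CT20 and 5.74% at CT24. These counts and shares take both directions together. Of the members under that p, 4 were higher and 5 lower in ADX at CT04, and 13 were higher and 0 lower at CT08. At CT12, 6 were higher and 1 lower, and at CT16, 7 and 3. At CT20, 11 were higher and 0 lower, and at CT24, 15 and 1. The member medians of the log2 fold change were 0.15 at CT04, 0.41 at CT08, 0.23 at CT12, 0.22 at CT16, 0.50 at CT20 and 0.45 at CT24. All 6 medians were positive, against medians over all tested genes between -0.0046 and 0.0091. Without sham CT20 replicate 1, 1 member was called at CT20.

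The V segments were used unevenly, and the order of use was much alike in both groups. The 20 most used segments held 50% of the light chain V counts and 53 held 90%. Levels were also put on a scale of CPM per kb of the gene length given in the deposited table. This scale adjusts for that length but not for reads that segments could share. Igkv11-106 and Igkv19-93, whose counts were nearly equal, had 22.6 and 18.2 on it. Igkv10-96 was highest with a mean of 43.3, followed by Igkv1-110 (36.8), Igkv14-126 (32.7), Igkv1-117 (31.0) and Igkv3-2 (29.1). Differences between neighbours in this order were not tested, and the spread over libraries was wide. Igkv10-96, for example, had 51.8 ± 17.0 CPM per kb in ADX and 34.7 ± 15.6 in sham, and Igkv1-110 had 43.9 ± 13.6 in ADX and 29.7 ± 12.5 in sham. Their log2 fold changes were 0.56 ± 0.19 and 0.54 ± 0.17, with adjusted p of 0.133 and 0.0997 (edgeR), so neither passed. Igkv14-126 had 32.9 ± 12.8 CPM per kb in ADX and 32.4 ± 15.6 in sham. Its log2 fold change of 0.06 ± 0.21 did not pass, and it took the opposite sign in 4 of the fits that left out 1 library and in the fit without the 3 libraries of highest muscle transcripts.

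The other segments among the 10 of highest mean CPM were Igkv1-117, Igkv3-2, Igkv1-135, Igkv3-1, Igkv3-4, Igkv3-5 and Igkv6-15. Their log2 fold changes were between 0.16 (Igkv1-117) and 0.35 (Igkv3-4), and the smallest adjusted p among them was 0.0825, for Igkv3-4 (edgeR). Igkv3-4 was among the steadiest, with 7.09 to 13.8 CPM in ADX libraries (median 10.1) and 5.02 to 13.5 CPM in sham libraries (median 7.49). Log2 shares of the segments correlated between pairs of ADX libraries with a median Pearson r of 0.801 (0.673 to 0.903) and between pairs of sham libraries with 0.794 (0.611 to 0.873), over 80 segments. The mean shares of the 2 groups correlated with r = 0.949. These correlations are across segments, which share their length and sequence, and are descriptions. The effective number of segments, the inverse of the summed squared shares, was 43.1 ± 5.72 in ADX and 44.5 ± 5.54 in sham (SD, n = 18 each).

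Along the kappa locus on chromosome 6 the members lie between 67555497 and 70704177 (GRCm38), from 22.3 to 3170 kb from Igkc. Levels were not even along this stretch. The nearest 26 members had a median of 14.4 CPM per kb, the middle 26 a median of 5.39 and the farthest 25 a median of 11.05, where Igkv10-96 stands at 43.3. The log2 fold change of ADX minus sham was above 0 for 25 of the 26 nearest, 23 of the 26 middle and 22 of the 25 farthest members, with medians of 0.32, 0.35 and 0.22. The 33 members on the strand of Igkc, which are joined by deletion of the DNA between them and the J segments, had a median of 13.4 CPM per kb and a median log2 fold change of 0.29. The 44 members on the opposite strand, which are joined by inversion, had medians of 9.90 CPM per kb and 0.33. These are descriptions and were not tested.

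**Figure D4:**
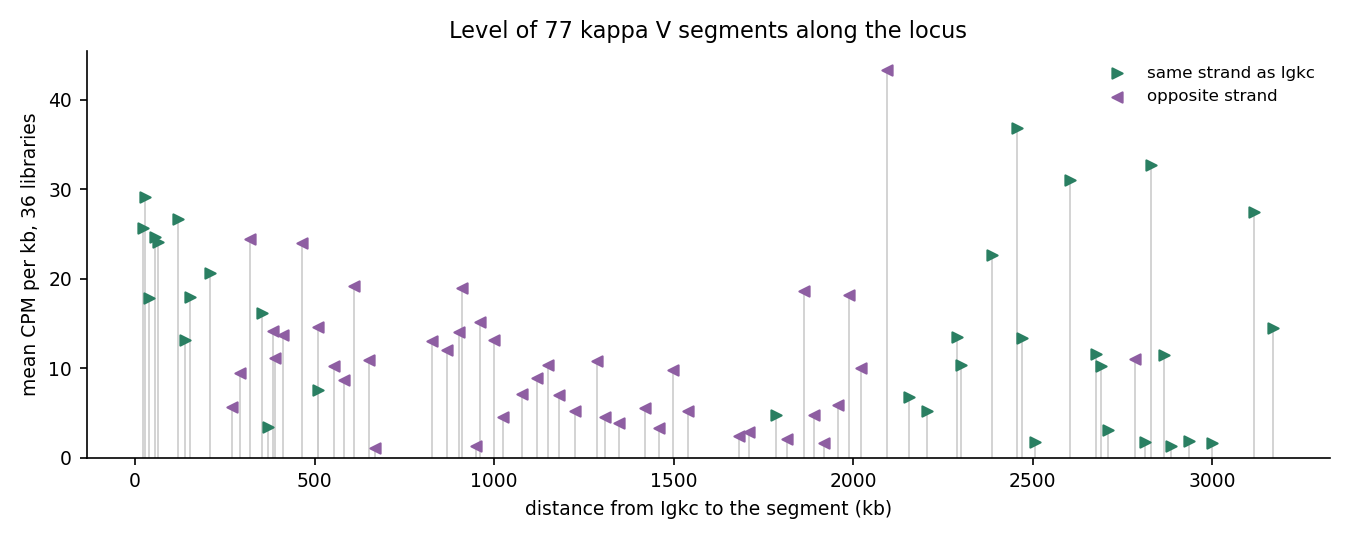
Mean level over 36 libraries (CPM per kb of gene length) of the 77 kappa V segments against their distance from Igkc in kb, with right-pointing triangles for segments on the strand of Igkc and left-pointing ones for the opposite strand. The median is lower in the middle of the locus than near Igkc (5.39 against 14.4 CPM per kb), and the highest point, at 43.3, is Igkv10-96.

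Grouped by the number that precedes the hyphen in their name, the members fall into 19 subgroups, 18 of kappa and 1 of lambda. Subgroup sums are less affected by reads that near-identical copies could share. Igkv3 held most, 20.5% of the light chain V level with 9 members, and had 76.2 ± 11.0 CPM in ADX and 63.9 ± 20.9 CPM in sham. Igkv1 had 47.8 ± 13.5 CPM in ADX and 37.6 ± 9.84 CPM in sham, Igkv6 had 42.8 ± 13.1 CPM in ADX and 32.4 ± 6.05 CPM in sham, and Igkv4, with 18 members, had 37.8 ± 6.63 CPM in ADX and 30.6 ± 6.57 CPM in sham. Of the 19 subgroups, 17 had a log2 ratio of the means above 0, between 0.11 (Igkv9) and 0.58 (Igkv2). The 2 below 0 were Igkv17 at -0.12 and Igkv7, whose single member is Igkv7-33, at -2.10. The ADX and sham ranges of the 5 leading subgroups overlapped.

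The 3 lambda segments, Iglv1, Iglv2 and Iglv3, together had 13.8 ± 2.16 CPM in ADX and 12.15 ± 1.90 CPM in sham. They made up 3.69 ± 0.62% of the light chain V level in ADX and 4.06 ± 0.69% in sham, so kappa segments dominated in every library. Iglv1 (chromosome 16, 19085017 to 19085500, minus strand) was highest with 21.4 CPM per kb, against 8.92 for Iglv3 and 6.34 for Iglv2. Iglv1 had 5.91 to 11.8 CPM in ADX libraries (median 7.304) and 4.81 to 9.30 CPM in sham libraries (median 6.77). The log2 fold changes were 0.18 ± 0.08 for Iglv1, 0.18 ± 0.14 for Iglv2 and 0.19 ± 0.09 for Iglv3, with adjusted p of 0.279, 0.588 and 0.270 (edgeR). None passed. Iglv3 was the steadiest of all 80 members, with a highest library 1.33 times its median.

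Between replicates the V segments varied more than other genes of like level. The biological coefficient of variation in edgeR had a median of 0.378 over the members and of 0.113 over the 9514 other tested genes in the same range of mean CPM. All 80 members lay above the median of those genes and 74 above their 90th percentile of 0.228. The highest library was over 5 times the median library for 16 of the 80 members, against 1.28% of the other genes, and over 10 times for 8 members. The highest library was an ADX one for 50 members and a sham one for 30. The V sum was also higher in ADX on average, and neither this split nor the count over 10 times was set against other genes.

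Several segments owed much of their signal to a single library. Igkv14-130 had 10.1 CPM (241 counts) in ADX CT24 replicate 2, 51.6 times its median of 0.197 CPM, and this library held 42.7% of all its counts. Igkv7-33 had 4.16 CPM (109 counts) in sham CT24 replicate 1, 39.6 times its median. Igkv14-100 had 29.8 CPM (685 counts) in ADX CT08 replicate 2, 29.0 times its median of 1.03 CPM, with the next library at 2.38 CPM. In each of these 3 segments the other replicates of the same status and time had 1.85 CPM or less. Igkv6-20 had 48.2 CPM (1317 counts) in ADX CT24 replicate 1, 22.1 times its median, and Igkv11-125 had 4.96 CPM (142 counts) in ADX CT08 replicate 1, 11.33 times its median. That library also held 44.6 CPM of Igkv8-24 (1278 counts), 11.26 times the median. Igkv1-88 was high in 3 libraries, with 34.4 CPM in ADX CT04 replicate 2, 27.6 CPM in ADX CT08 replicate 3 and 37.7 CPM in sham CT12 replicate 1, against a median of 3.62 CPM.

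**Figure D5:**
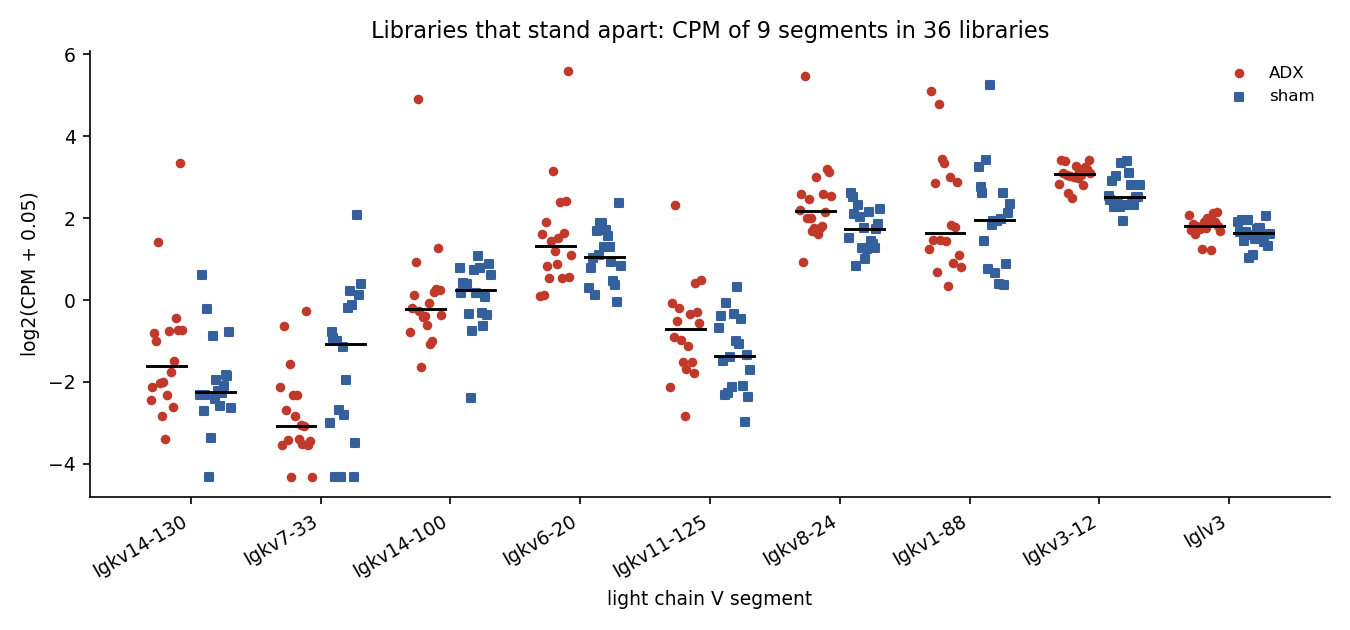
CPM of 9 light chain V segments in the 36 libraries on a log2 scale after adding 0.05, with ADX (circles) left of sham (squares) for each segment and black lines at the medians of 18 libraries. In 7 segments single libraries stand far above the rest, while Igkv3-12 and Iglv3, picked after their values were seen as steady segments, show no such library.

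In a few libraries a single segment took a large share of the light chain V counts. The leading segment held 11.7% in ADX CT08 replicate 1 (Igkv8-24, exact 95% binomial interval 11.12 to 12.34), 10.1% in ADX CT12 replicate 2 (Igkv3-1, 9.44 to 10.8), 10.5% in ADX CT24 replicate 1 (Igkv6-20, 9.92 to 11.0) and 13.9% in sham CT12 replicate 1 (Igkv1-88, 13.03 to 14.83). The intervals are Clopper-Pearson intervals and cover counting error only, since reads without molecular identifiers are not independent molecules. In the other 32 libraries it held less than 10%. The leading segment's share was 6.44 ± 2.26% in ADX and 6.00 ± 2.35% in sham (SD, n = 18 each). Igkv10-96 led in 12 libraries, Igkv1-110 and Igkv14-126 in 5 each, and 13 different segments led in at least 1.

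Few segments passed a test for a daily rhythm, a smaller share than among all tested genes, and single libraries decided several of these calls. The members varied more between replicates than other genes of like level (median biological coefficient of variation 0.378 against 0.113). A rhythm of the same size is harder to call at a larger spread, so the shares do not measure how rhythmic the segments are. The rhythm was a cosine of period 24 h fitted per status with edgeR. In ADX, 3 members were called, Igkv14-100 (adjusted p = 0.00958), Igkv4-68 (0.0389) and Igkv14-130 (0.0428), or 3.75% against 9.40% of all tested genes. In sham, 2 members were called, Igkv4-91 (adjusted p = 0.0296) and Igkv7-33 (0.0445), or 2.50% against 16.08% of all tested genes. In the fit shared by both groups, 4 members were called against 32.5% of all tested genes. These were Igkv12-89 (adjusted p = 0.00176), Igkv5-39 (0.0156), Igkv14-111 (0.0305) and Igkv1-88 (0.0317). The test of a difference in rhythm called 0 members with edgeR and with DESeq2, and 0% of all tested genes, and 8 members had an unadjusted p under 0.05 in it, against 3.57% of all tested genes.

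The ADX rhythm calls of Igkv14-100 and Igkv14-130 went with the libraries in which these segments stood apart. Igkv14-100 had an adjusted p of 0.365 without ADX CT08 replicate 2, and Igkv14-130 had 0.521 without ADX CT24 replicate 2 and was lost in 8 further fits. Igkv4-68 peaked at 19.19 h in ADX with a fitted peak-to-trough of 1.13 on the log2 scale, and its call was lost in 10 of the 36 fits, all without an ADX library. The sham call of Igkv4-91 was lost without sham CT12 replicate 2 (adjusted p = 0.221), sham CT24 replicate 1 or sham CT24 replicate 2. That of Igkv7-33 was lost without sham CT24 replicate 1 (adjusted p = 0.336) and in 10 further fits.

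Igkv12-89 had the smallest adjusted p of a shared rhythm among the members. Its call was kept in all 36 fits, with adjusted p from 0.00097 to 0.00687 (edgeR). The fitted peak was at 18.04 h in ADX, with a peak-to-trough of 1.42 on the log2 scale, and at 18.82 h in sham, with 1.19. At CT20 it had 1.43, 4.87 and 1.06 CPM in ADX libraries and 2.77, 4.03 and 2.99 CPM in sham libraries, and at CT08 it had 1.43, 0.915 and 0.582 CPM in ADX libraries and 1.54, 1.97 and 1.26 CPM in sham libraries. The 3 sham libraries at CT20 were above the 3 at CT08, while in ADX the values at these times overlapped. Igkv5-39 was highest in ADX CT24 replicate 2 (380 counts) and, among sham libraries, in sham CT20 replicate 2 (11.9 CPM), and its shared call was lost without the sham one (adjusted p = 0.0621). Igkv14-111 lost its shared call without ADX CT24 replicate 1 or sham CT12 replicate 1, CT24 replicate 2 or CT24 replicate 3, and Igkv1-88 lost it without ADX CT08 replicate 3 or sham CT20 replicate 3.

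Other genes of the light chain pathway and of B-lineage cells had positive differences as well. All 5 tested kappa J segments had positive log2 fold changes and 2 were called, Igkj5 (0.33 ± 0.07, edgeR adjusted p = 0.0389) and Igkj4 (0.31 ± 0.07, adjusted p = 0.0429). When 1 library was left out, the call of Igkj5 was lost in 14 of 36 fits and that of Igkj4 in 27, and without the 3 libraries of highest muscle transcripts the adjusted p was 0.0533 for Igkj5 and 0.0582 for Igkj4. Igkj5 was also the gene outside the members whose level was most like the V sum, with Pearson r = 0.984 over the 36 libraries on the log2 scale, followed by Igkc (0.972), Igkj4 (0.969), Igkj3 (0.949) and Igkj2 (0.944). J segments lie just before Igkc, and reads of a joined transcript can fall on V, J and constant parts alike. Of 11 genes of the surrogate light chain and of V(D)J recombination, such as Vpreb1, Igll1, Rag1 and Rag2, 10 were above 0 with a median of 0.23 and 0 passed. All 7 tested heavy chain constant genes were above 0 (median 0.36), and Ighm, the mu chain of immature and naive B cells, was called (0.33 ± 0.08, edgeR adjusted p = 0.0489). That call was lost in 26 of the 36 fits that left out 1 library, with the replicate number as a block (adjusted p = 0.0531) and without the 3 libraries of highest muscle transcripts (0.0697).

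All 16 B lymphocyte markers were above 0, with a median of 0.26, and 0 passed. Their summed level was 761 to 1344 CPM in ADX libraries and 548 to 985 CPM in sham libraries. Of 10 plasma cell genes, 7 were above 0 (median 0.13) and Jchain, which links antibody multimers, was called (0.46 ± 0.10, edgeR adjusted p = 0.0376). Its call was lost in 14 of the 36 fits that left out 1 library, without the 4 libraries of highest Gh (adjusted p = 0.0614) and without the 3 of highest muscle transcripts (0.0555). Pou2f2, a factor that binds the octamer element of V promoters, was the 1 of 3 octamer factor genes that was called (0.22 ± 0.05, adjusted p = 0.0486). It was lost in 27 of those 36 fits and with RLE in place of TMM factors in edgeR (adjusted p = 0.0501). The call of Pou2f2 was also lost with no filter on low counts (0.0619) and without the 3 libraries of highest muscle transcripts (0.0712).

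Markers of other cell types had differences of either sign. Of 15 skeletal muscle genes, 14 were above 0 with a median log2 fold change of 1.02, larger than that of the V segments, and 0 passed. Their summed level was 131 to 882 CPM in ADX libraries and 124 to 173 CPM in sham libraries. None of 8 genes of the stria vascularis, the tissue that secretes the fluid of the cochlear duct, was above 0 (median -0.07) and 0 passed, with sums of 2121 to 2624 CPM in ADX libraries and 2158 to 3232 CPM in sham libraries. None of 5 tested pituitary genes was above 0 (median -0.74), and 4 of 10 hair cell genes were. Genes of granulocytes and red cells had differences of the sign opposite to most V segments. None of 15 neutrophil and granulocyte precursor genes was above 0, 3 were called lower, and their summed level was 5524 to 10422 CPM in ADX libraries and 7416 to 12596 CPM in sham libraries. None of 11 tested erythroid genes was above 0 (median -0.16), with no call by edgeR. Of 14 T and NK lymphocyte genes, 5 were above 0 (median -0.05) and 1 was called higher. The part of the cell makeup in the differences of the V segments was not tested.

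Near-identical sequence limits how far single segments can be told apart. Across the members, the median identity of the V exon to that of the closest member was 93.9% (65.6 to 99.0), the closest member was of the same subgroup for 74, and 34 had an identity of at least 95%. For 41 members no 100-base window of the transcript occurred in another gene. For 39 some did, and for 2 over 50% of windows did, Igkv6-20 with 55.8% (shared with Igkv6-29) and Igkv2-137 with 50.5%. The leading segment Igkv10-96 and its relative Igkv10-94 show such a pair, which differ at 16 of 298 bases and share 12.31% of the windows of Igkv10-96. Capitals mark the bases that differ between the 2 in the last 290 bases of the V exon.
Igkv10-96, chr6:68631963-68632252, minus strand: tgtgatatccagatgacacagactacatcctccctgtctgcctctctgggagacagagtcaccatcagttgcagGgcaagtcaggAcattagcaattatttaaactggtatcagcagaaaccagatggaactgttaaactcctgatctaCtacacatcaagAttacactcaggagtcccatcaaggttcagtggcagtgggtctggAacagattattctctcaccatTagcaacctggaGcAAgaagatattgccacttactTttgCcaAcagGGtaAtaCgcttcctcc
Igkv10-94, chr6:68704508-68704797, minus strand: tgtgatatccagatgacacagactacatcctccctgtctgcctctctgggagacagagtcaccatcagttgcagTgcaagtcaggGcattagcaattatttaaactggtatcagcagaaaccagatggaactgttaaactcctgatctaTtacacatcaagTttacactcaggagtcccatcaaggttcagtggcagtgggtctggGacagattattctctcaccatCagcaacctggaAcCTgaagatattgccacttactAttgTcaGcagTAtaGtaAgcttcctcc
Their log2 fold changes were 0.56 ± 0.19 and -0.13 ± 0.23, of which neither passed and whose difference was not tested. The pseudogene Igkv11-106 and the V gene Igkv19-93 had equal counts in 22 of 36 libraries and differed by at most 2 counts in the rest, with totals of 5584 and 5601, although their annotated transcripts share no 100-base window. Their signal is uncertain and may be counted under both names.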

How the data were processed

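Cochlear RNA was made into strand-specific messenger RNA libraries and read as single reads of 100 bases in pools of 6, per the labels' protocols. The submitters' processing notes list STAR 2.4.0i and build mm10. Items not given in the sources used here: counter, annotation, strand setting and pool membership. Reads of overlapping or antisense genes therefore cannot be told apart. The authors deposited whole-number counts per Ensembl gene for 39017 genes, not normalized, with a gene length per the file headers and 0 columns of other samples. Column names gave a time 1 h before the label for 30 of 36 libraries, and the labelled times were used. Symbols came from GENCODE M21 (GRCm38), which matched 37693 IDs (96.6%).

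Counts were fitted with edgeR 4.0.16 in R 4.3.3 (TMM, filterByExpr, quasi-likelihood, 12 group means or a 24 h cosine and sine per status) on all genes, with Benjamini-Hochberg adjustment over the 22556 genes kept and a threshold of 0.05. Genes left out held 0.0779% of counts. No label says that libraries came from separate animals: a p-value here reflects the spread of these samples, which may be technical. Replicates differed beyond sampling noise, with chi-square values of 5.49 to 22.7 for each degree of freedom. Sequences were aligned with Biopython 1.88 and figures drawn with matplotlib 3.10.9. The fits were also run on simulated counts with changes set in randomly picked genes. No single outlying libraries were built into these counts, so the run does not cover segments that have them.

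Members and gene lists were chosen with earlier results of these data known. Named were members called in any test, the 10 of highest mean CPM, the 5 highest and 5 lowest log2 fold changes, the 5 with the largest ratio of highest to median library, all Iglv members, the genes next to the count minimum, other genes where a result turned on them, and the 5 genes most like the V sum. Alternatives were DESeq2 1.42.0, RLE in place of TMM factors in edgeR, no filter, and the replicate number as a block. Others were any difference between times, another library size or gene set for the sum, and each library left out. Added after seeing the data were the column times and fits without 3 muscle-high libraries, 4 Gh-high libraries or Igkv11-106. Promoters of the segments were not analysed here.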

Additional observations from a re-analysis of the deposited data

How the results depend on the processing

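The log2 ratio of the summed V level, 0.32 in the main analysis, was 0.33 without TMM factors, 0.32 with all 106 segments, 0.32 without Igkv11-106, 0.34 without the 4 Gh-high libraries, 0.33 without the 3 muscle-high ones, and 0.29 to 0.34 when 1 library was left out. The number of members above 0 was 73 with DESeq2, with RLE in place of TMM factors in edgeR, with no filter or with a replicate block. It was 70 without either set of libraries, and 68 to 74 when 1 library was left out. The number called over the mean of the times was 8 with DESeq2, 4 without the 4 Gh-high libraries (2 with the main analysis, of which 1 was shared), 0 without the 3 muscle-high libraries, and 0 to 7 when 1 library was left out, with 7 without sham CT20 replicate 1 and 5 without sham CT12 replicate 2. Leaving out 1 library gave 0 or 1 call at CT20, 0 to 4 sham rhythms, 1 to 5 ADX rhythms and 3 to 7 shared rhythms. Without the filter 1 member was called rhythmic in ADX and 1 in sham, and the test of any difference between times called 5 in ADX, 5 in sham and 9 shared. DESeq2 called 5 ADX rhythms, and the fit without the 4 Gh-high libraries 2 shared ones. Some of these fits had fewer samples or more tested genes, and the causes of the changed counts were not tested. The shares of all tested genes called in these alternative fits are not given here. The member counts therefore do not show whether more or fewer members than other genes were called. With a replicate block, 2 members were called over the mean of the times, the same 2, and 1 sham rhythm in place of 2; the replicate numbers did not pair the samples (1 of 18 same-numbered pairs with r over 0.1, range -0.10 to 0.11). Igkv14-126 had a log2 fold change of -0.041 without the muscle-high libraries and Igkv5-39 one of -0.057 without the Gh-high ones. When 1 library was left out, the log2 fold change ranged from -0.12 to 0.62 for Igkv1-88, -0.31 to 0.38 for Igkv14-100, -0.039 to 0.16 for Igkv14-126, -0.055 to 0.32 for Igkv5-39, -0.26 to 0.012 for Igkv10-94 and -0.35 to 0.058 for Igkv4-80. Segments with a mean near 10 counts are limited by depth.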

Other observations

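Some libraries that stood apart did so in more than one antibody segment. Among the 91 heavy chain V genes (Ighv) with a mean count of at least 10, 1 had a highest library over 10 times its median, Ighv1-12, with 30.3 CPM (695 counts) in ADX CT08 replicate 2 and a median of 1.86 CPM. This was the library in which the light chain segment Igkv14-100 had 29.8 CPM (685 counts). Of the 8 light chain segments past the same ratio, Igkv8-24 and Igkv11-125 were highest in ADX CT08 replicate 1, and Igkv1-88 (803 counts) and Igkv9-129 (73 counts) in sham CT12 replicate 1. These pairs were noticed in the data, were picked after their values were seen, and were not tested.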
